A study of Mus musculus with 5 samples.

Results

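Osteopontin, encoded by Spp1, and 7 genes for its receptor chains (Cd44, Itgav, Itgb1, Itgb3, Itgb5, Itga4 and Itga9) were followed in single-nucleus RNA-seq (snRNA-seq) of mouse liver. These 8 genes were chosen by name, with earlier results of these data known, and they are 8 of the 32285 genes in the deposited matrices. Their transcripts were summed in each library by liver cell lineage, and Spp1 was also set against transcripts that can reach a nucleus as free RNA. Which class of nuclei carries each gene is therefore given as a description, with no test.

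Osteopontin is a secreted, acidic phosphoprotein of the extracellular matrix that carries an RGD motif for integrins and a second motif that is exposed when thrombin cuts the protein. The alpha v integrin chain pairs with the beta 1, beta 3 or beta 5 chain to bind the RGD motif, the alpha 4 and alpha 9 chains pair with beta 1 and bind the thrombin-exposed motif, and CD44 is a cell surface receptor best known for binding hyaluronan. In liver, osteopontin is known as a product of bile duct epithelium and, in injury, of other cell types including macrophages. In droplet snRNA-seq, RNA released from broken cells can be captured together with any nucleus, so a transcript that is abundant in 1 cell type can be counted at a low level in all of them.

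The samples were livers of wild-type male C57BL6/J mice. In 3 libraries the mice had been on regular chow. In 2 libraries they had been on a diet that induces metabolic dysfunction-associated steatohepatitis (MASH), with fat at 40 kcal%, fructose at 20 kcal% and cholesterol at 2%. For all 5 libraries the diet period is given as 5 months from an age of 10 to 12 weeks. Nothing in the sources used here says whether a library is 1 mouse or a pool, so the p-values below measure only the spread between libraries. Each library held 7969 to 11574 nuclei after filtering, and from 35612373 to 49137377 unique molecular identifiers (UMIs, which count captured transcripts) before it. Pairs of libraries shared 23 to 48 cell barcodes. MASH replicate 1 stood apart by its mitochondrial transcripts, with a median of 7.42% of UMIs per nucleus against 0.892% to 3.55% in the other libraries.

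Nuclei were grouped into 12 classes by clusters and marker genes, with the 8 genes left out of the clustering. Classes are named "-like" because the names were rebuilt from markers. Hepatocyte-like nuclei were those of clusters in which markers of no other class stood out, with a low mitochondrial share. Pkhd1, the fibrocystin gene of bile duct epithelium, stood at 695 counts per 1000000 UMIs (CPM) in the cholangiocyte-like nuclei of chow replicate 3, and at 654 and 1064 CPM in those of the MASH libraries. In hepatocyte-like nuclei it did not exceed 49.0 CPM. Clec4f and Gpnmb marked macrophage-like nuclei, Reln stellate-like, Ptprb endothelial-like, Lck T-like and Hnf4a hepatocyte-like nuclei. The cholangiocyte-like class was small in chow, with 18, 9 and 43 nuclei in replicates 1, 2 and 3, and large in MASH, with 319 and 1335 nuclei.

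On mouse genome build GRCm38, Spp1 lies on chromosome 5 from 104435118 to 104441050 on the plus strand, and the annotation places 1 further transcript model, Gm42793, over it on the same strand. RefSeq (GRCm38.p6) gives 2 start sites for Spp1. The promoter window of the start nearer to the annotated gene start (chr5:104434861-104435160, plus strand, from 250 bases before the start to 50 after it) is shown because Spp1 is the gene on which the results turn. Capitals mark a match to AACCACA, the core letters of a RUNX-type motif, whose first base is at -129 relative to the start.
Spp1 promoter: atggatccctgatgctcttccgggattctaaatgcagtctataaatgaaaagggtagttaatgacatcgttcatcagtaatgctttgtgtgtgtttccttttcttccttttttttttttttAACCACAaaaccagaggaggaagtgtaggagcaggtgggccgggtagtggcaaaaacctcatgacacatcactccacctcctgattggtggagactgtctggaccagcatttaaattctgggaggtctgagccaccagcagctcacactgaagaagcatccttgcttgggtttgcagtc
Searched on both strands, AACCACA occurs in 5.27% of 32851 RefSeq promoter windows of the same length, and TATAAA, found once in this window at -211, occurs in 13.6%. The AP-1-type motif TGANTCA occurs in 7.81% of windows, is not in these letters of Spp1, and among the 7 genes with an entry is found for Itga9 alone. The start site of that Itga9 window lies 105002 bases past the annotated gene start. Such matches are a description of the sequence only.

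Spp1 was concentrated in cholangiocyte-like nuclei on both diets. There it stood at 5658, 3646 and 11057 CPM in chow replicates 1 to 3 and at 6298 and 6447 CPM in MASH replicates 1 and 2. The chow libraries lay on either side of the MASH libraries, and the lowest of these values was above every value in any other class of at least 20 nuclei. These chow values rest on 117, 45 and 589 Spp1 UMIs, and the MASH values on 2929 and 11831.

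Outside the cholangiocyte-like nuclei, Spp1 was low in chow and present in every main class in MASH. In hepatocyte-like nuclei it was 2.29, 8.14 and 11.8 CPM in chow and 151 and 201 CPM in MASH. In macrophage-like nuclei it was 40.0, 7.40 and 10.4 CPM in chow, from 6, 1 and 3 UMIs, and 340 and 620 CPM in MASH. In stellate-like nuclei it was 4.08, 17.8 and 17.5 CPM in chow and 253 and 475 CPM in MASH. No MASH library overlapped a chow library in these classes, and in each of them MASH replicate 2 was above MASH replicate 1.

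The lymphocyte classes gave values of the same order. T-like nuclei had 1, 0 and 0 Spp1 UMIs in the chow libraries and 412 and 751 CPM in MASH. B-like nuclei had none in any chow library and 573 and 1002 CPM in MASH. Endothelial-like nuclei were at 24.7, 0 and 37.5 CPM in chow and 394 and 595 CPM in MASH. Proliferating-like nuclei had no Spp1 UMI in chow, where the libraries held only 17, 23 and 8 of them, and 374 and 635 CPM in MASH. In descending order of the MASH mean 9 classes ran from cholangiocyte-like through B-like, T-like, proliferating-like, endothelial-like, macrophage-like, dendritic-like and stellate-like to hepatocyte-like nuclei. From B-like to stellate-like nuclei the ranges of neighbouring classes overlapped, whereas cholangiocyte-like nuclei lay above and hepatocyte-like nuclei below all of them.

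**Figure D1:**
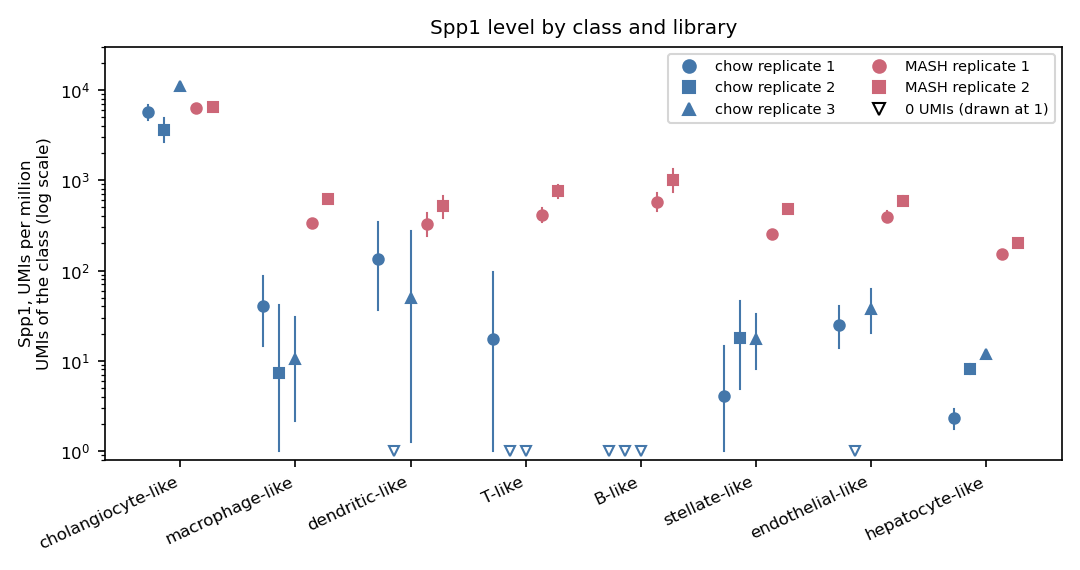
Spp1 in CPM of each class (log axis) for 8 classes of nuclei; each symbol is 1 library, blue for chow and red for MASH, vertical lines are exact Poisson 95% intervals that cover counting error only, and open triangles mark 0 UMIs. Cholangiocyte-like nuclei were between 3646 and 11057 in all 5 libraries, while in MASH the other 7 classes were between 151 and 1002.

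Counted per nucleus, Spp1 had a mean below 1 UMI in the 6 classes of MASH that follow besides cholangiocyte-like nuclei. In MASH replicate 1 the mean was 9.18 Spp1 UMIs per cholangiocyte-like nucleus, and 0.429 per macrophage-like, 0.363 per stellate-like, 0.432 per endothelial-like, 0.460 per T-like, 0.636 per B-like and 0.657 per hepatocyte-like nucleus. In MASH replicate 2 the same means were 8.86, 0.756, 0.667, 0.596, 0.728, 0.904 and 0.940 in that order. Proliferating-like nuclei were at 1.05 and 1.62 Spp1 UMIs per nucleus. Macrophage-like nuclei were thus below B-like nuclei in both libraries and within the range of the other classes. Hepatocyte-like nuclei, whose median depth was 4014 and 3939 UMIs against 681 to 1332 in the macrophage-like, stellate-like, endothelial-like, T-like and B-like classes, were low in CPM but not in UMIs per nucleus. In chow the mean was 6.5, 5 and 13.7 Spp1 UMIs per cholangiocyte-like nucleus and at most 0.0563 in the other 6 of these classes.

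The share of nuclei with an Spp1 UMI showed the same division once every nucleus was thinned to 500 UMIs, so that depth did not differ between classes. In MASH replicates 1 and 2 it was 87.1% and 88.5% of cholangiocyte-like nuclei, with exact binomial 95% intervals of 83.0% to 90.6% and 86.6% to 90.1%. It was 15% and 26.5% of macrophage-like nuclei (intervals of 13.2% to 16.8% and 23.9% to 29.3%), against 16.5% and 26.9% of B-like nuclei (10.4% to 24.4% and 15.6% to 41.0%), taken for comparison as a class that should lack the gene. The share in macrophage-like nuclei was at or below that in B-like nuclei in both libraries. T-like nuclei were at 15.3% and 25.1%, endothelial-like at 16.2% and 24.7%, stellate-like at 11% and 20.0%, and hepatocyte-like at 7.58% and 11%. Without thinning the shares were 29.1% and 45.4% for macrophage-like nuclei, at median depths of 1152 and 1077 UMIs, and 35.5% and 46.2% for B-like nuclei, at 962 and 681 UMIs. In chow, B-like nuclei gave 0 of 40, 0 of 8 and 0 of 42 nuclei with an Spp1 UMI, which allows shares of up to 7.50%, 37.5% and 7.14%. Over libraries, the thinned share differed between the diets by 19.6 percentage points in macrophage-like nuclei (1.12% ± 0.333 in chow, SD, n = 3, and 20.7% ± 8.17 in MASH, n = 2), with a two-sided exact permutation p of 0.1, the smallest that 3 against 2 libraries allow. The p was also 0.1 in stellate-like, endothelial-like, hepatocyte-like and T-like nuclei (0.117 after Benjamini-Hochberg adjustment over 7 classes, exact permutation test).

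Spp1 was next set against transcripts that hepatocytes release, summed over Alb, Apoa1, Apoa2, Apoc1, Apoc3, Ttr, Rbp4 and Trf, because free RNA from 1 source keeps its genes in 1 ratio in every class of a library. In MASH replicate 1 there were 390 Spp1 UMIs per 1000 reference UMIs in cholangiocyte-like nuclei (exact Poisson 95% interval 376 to 404), and 29.3 in B-like nuclei (23.2 to 36.7). Macrophage-like nuclei had 19.7 (18.2 to 21.2), T-like 21.2 (17.8 to 25.1), endothelial-like 20.3 (17.6 to 23.3), dendritic-like 19.6 (14.6 to 25.9) and stellate-like 17.3 (15.5 to 19.3). In MASH replicate 2 cholangiocyte-like nuclei had 913 (896 to 929), B-like 105 (77.3 to 140), macrophage-like 82.0 (76.4 to 87.9), T-like 81.3 (68.4 to 96.0), stellate-like 76.8 (71.9 to 81.9), endothelial-like 64.3 (57.6 to 71.5) and dendritic-like 62.0 (46.0 to 81.8). The macrophage-like, T-like and dendritic-like intervals overlapped in each library. The macrophage-like interval lay below the B-like one in replicate 1 and overlapped it in replicate 2. In MASH 2 of 121 and 1 of 52 B-like nuclei had 5 or more Spp1 UMIs. They held 27 of 77 and 10 of 47 of the B-like Spp1 UMIs. All of them also had a UMI of Pkhd1, Krt19, Krt7, Epcam, Cftr or Bicc1. In macrophage-like nuclei 14 of 1585 and 17 of 1060 were such nuclei and held 104 of 680 and 124 of 801. The B-like ratio rests in part on those few nuclei, which its Poisson interval does not cover. Proliferating-like nuclei had 34.2 (29.3 to 39.6) and 87.1 (76.3 to 99.1). Cholangiocyte-like nuclei had 13.3 and 8.68 times the B-like ratio. Of the small classes, the 17 erythroid-like nuclei of MASH replicate 1 had 48.0 (29.3 to 74.1), above the B-like value with overlapping intervals, and the 171 neutrophil-like nuclei of chow replicate 1 had 77.5 (38.7 to 139) from 11 Spp1 UMIs. Hepatocyte-like nuclei, which make the reference transcripts themselves, had 14.5 and 24.9. Cholangiocyte-like nuclei were 3.67% of named nuclei in MASH replicate 1 and 13.9% in MASH replicate 2, and 0.243%, 0.0920% and 0.457% in chow. In chow, macrophage-like nuclei had 2.32, 0.189 and 0.306 Spp1 UMIs per 1000 reference UMIs. Intervals and floors cover counting error only.

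**Figure D2:**
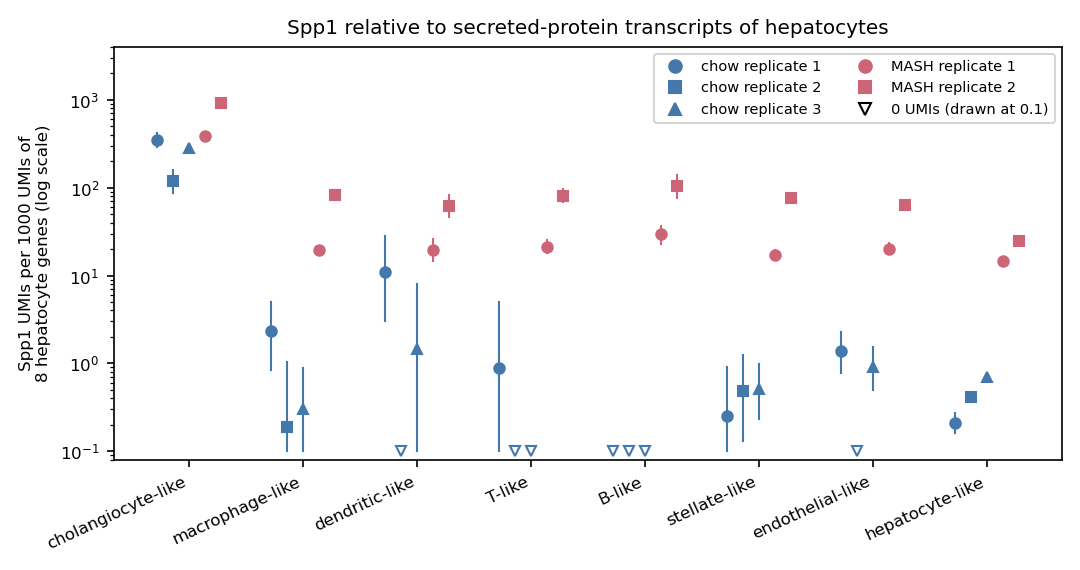
Spp1 UMIs per 1000 UMIs of 8 hepatocyte transcripts (log axis) by class; symbols and colours as for the Spp1 level, lines are exact Poisson 95% intervals and open triangles mark 0 UMIs. In each MASH library the macrophage-like, dendritic-like, T-like, B-like, stellate-like and endothelial-like nuclei lay together, between 17.3 and 29.3 in replicate 1 and between 62.0 and 105 in replicate 2, below cholangiocyte-like nuclei at 390 and 913.

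Macrophages were examined by Gpnmb, a gene of lipid-associated macrophages, and Clec4f, a gene of resident Kupffer cells. In MASH replicate 1, Spp1 was 300 CPM in the 195 macrophage-like nuclei with a Gpnmb UMI and no Clec4f UMI, 315 CPM in the 330 with Clec4f and no Gpnmb, 214 CPM in the 88 with both and 375 CPM in the 972 with neither. In MASH replicate 2 the same 4 sets of 278, 150, 58 and 574 nuclei had 670, 432, 507 and 673 CPM. The nuclei with Gpnmb alone were below those with Clec4f alone in replicate 1 and above them in replicate 2. Nuclei with neither gene were the highest in both, in replicate 2 by only 673 against 670 CPM. The sets differed in median depth, with 1085.5 and 921 UMIs for nuclei with neither gene and 1419 and 1651.5 for those with both. Most macrophage-like nuclei of chow (74.4%, 93.8% and 82.8%) fell in a cluster with Cd163, Clec4f and Timd4 among its top 10 genes, whereas at least 99.9% of those of MASH fell in one with Gpnmb, Mmp12 and Ccr2 among them.

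Nuclei with 5 or more Spp1 UMIs made up 74.0% and 69.1% of cholangiocyte-like nuclei in MASH, and 55.6%, 55.6% and 81.4% in chow. In MASH they were 0.883% and 1.60% of macrophage-like, 0.228% and 1.17% of stellate-like and 2.19% and 2.26% of hepatocyte-like nuclei. Among nuclei in clusters left unnamed they were 80 of 2815 (2.84%) and 156 of 797 (19.6%) in MASH. Of the 103 and 108 such hepatocyte-like nuclei, 57.3% and 63.9% also had a UMI of Pkhd1, Krt19, Krt7, Epcam, Cftr or Bicc1, against 16.4% and 20.6% of those with no Spp1 UMI, while Hnf4a, a hepatocyte transcription factor, was seen in 59.2% and 51.9%. Of the 14 and 17 such macrophage-like nuclei 35.7% and 23.5% had a UMI of those 6 bile duct genes, against 2.74% and 6.23% of the rest. The share of high-Spp1 nuclei was larger among proliferating-like nuclei, 6.51% and 9.03% in MASH, and of those 11 and 13 nuclei, 8 and 10 carried a UMI of the bile duct genes. Nuclei with 5 or more Spp1 UMIs were chosen by Spp1 itself, so these shares carry no test.

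Cholangiocyte-like nuclei held far more of the Spp1 UMIs of a library than of its nuclei. They were 0.226%, 0.0778% and 0.429% of chow nuclei and held 45.7%, 11% and 51.6% of the Spp1 UMIs, and in MASH they were 2.77% and 12.8% of nuclei and held 28.8% and 55.0%. Hepatocyte-like nuclei held 23.8%, 66.3% and 41.0% in chow. In MASH they held 30.4% and 20.9%. Nuclei in unnamed clusters held 15.2%, 21.2% and 4.90% in chow and 24.5% and 12.3% in MASH. Macrophage-like nuclei held 2.34%, 0.244% and 0.263% in chow and 6.68% and 3.72% in MASH. Over all nuclei Spp1 was 8.09, 10.4 and 26.1 CPM in chow and 312 and 681 CPM in MASH, a ratio of means of 33.4. When each class was given the mean share of UMIs that it had in chow, the chow mean was 13.6 CPM ± 6.84 (SD, n = 3), the MASH mean 239 CPM ± 77.7 (n = 2) and the ratio 17.6. With shares of nuclei as weights the ratio was 10.4. In sums over all nuclei, more nuclei of a class and more RNA per nucleus cannot be told apart.

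**Figure D3:**
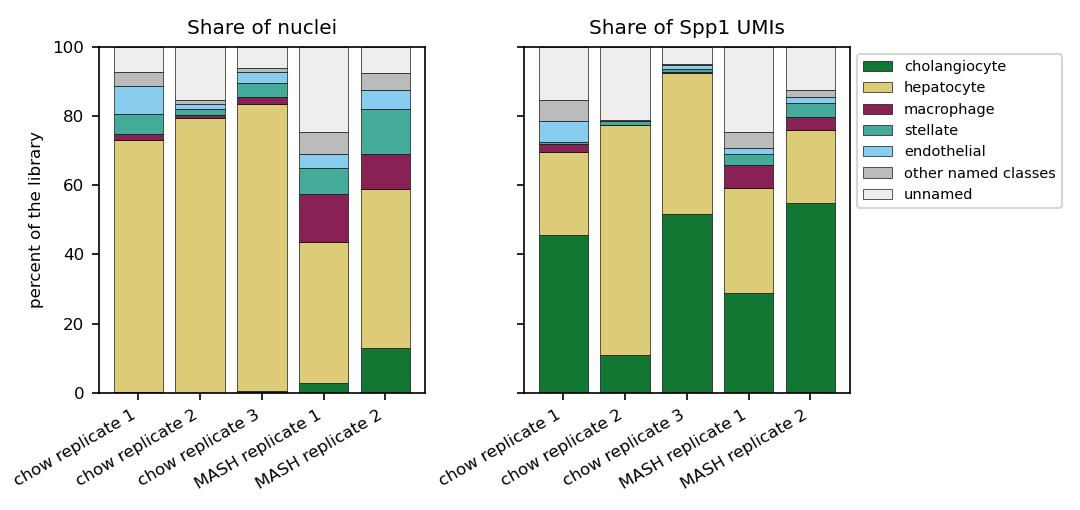
Share of nuclei (left) and share of Spp1 UMIs (right) held by each class in each of the 5 libraries, as percent of the library on a linear axis from 0 to 100. Cholangiocyte-like nuclei, in green, were at most 12.8% of nuclei and held 11% to 55.0% of Spp1 UMIs.

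The difference between the diets was tested on sums per library and class, with edgeR's quasi-likelihood test across all genes that passed a filter on low counts, and a gene was called at a Benjamini-Hochberg adjusted p under 0.05. Over all nuclei, 5 of the 8 genes were called, all higher in MASH, against a background of 16% of 16369 genes called in either direction and 10.6% called higher. The median log2 fold of the 8 genes was 1.08, beside -0.03 over all genes tested. Within classes Spp1 was the gene called most often, in hepatocyte-like, stellate-like, endothelial-like, macrophage-like, T-like and B-like nuclei. Of the genes tested in these classes 13.8%, 0.894%, 0.631%, 1.07%, 1.69% and 1.44% were called in that order. Those called higher were 9.16%, 0.372%, 0.334%, 0.306%, 0.497% and 0.262%. In macrophage-like, stellate-like, T-like and B-like nuclei Spp1 passed the filter on low counts only through the MASH libraries, where it was high. Its calls there are therefore not to be weighed against these shares.

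Spp1 rose over all nuclei by a log2 fold of 4.54 (SE 0.67, edgeR adjusted p 0.0111). In macrophage-like nuclei it rose by 4.75 (SE 0.52, edgeR adjusted p 0.00142), in stellate-like by 4.78 (SE 0.53, adjusted p 0.00489), in endothelial-like by 4.44 (SE 0.59, adjusted p 0.00705) and in hepatocyte-like by 4.12 (SE 0.69, adjusted p 0.0148). In all 5 of these tests both MASH libraries were above every chow library. How many other genes separate in this way is not given, so such separation is only a description, here and elsewhere. Different clusters held these classes: 1 cluster held 99.3% and 99.9% of stellate-like nuclei in MASH, another held 83.6% and 97.2% in chow replicates 1 and 2, and yet another 97.7% in chow replicate 3. Endothelial-like nuclei of MASH and of chow replicate 1 shared a cluster, while 96.4% of those of chow replicate 2 and 98.1% of those of chow replicate 3 lay in clusters of their own. The hepatocyte-like call was lost without chow replicate 2, MASH replicate 1 or MASH replicate 2 (edgeR adjusted p 0.0576, 0.0617 and 0.0793), and the endothelial-like call when nuclei called as doublets were kept (edgeR adjusted p 0.179). In T-like nuclei, with 1 Spp1 UMI in chow and 277 in MASH, the ratio was 75.6 with a counting interval of 13.5 to 2996 (edgeR adjusted p 0.000587), a call lost when nuclei were taken by single genes (log2 fold 4.98, edgeR adjusted p 0.0623). In B-like nuclei, with 0 and 124 UMIs in the libraries of at least 20 nuclei, Spp1 was at least 21.5-fold higher, against a floor of 3 counts over the chow group (edgeR adjusted p 0.000110), a call lost without chow replicate 1 (edgeR adjusted p 0.0875).

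Beside each of these calls, bile duct markers also moved. The summed level of 8 cholangiocyte markers (Pkhd1, Krt19, Krt7, Epcam, Cftr, Bicc1, Glis3 and Sox9) in macrophage-like nuclei was 13.8 to 26.7 CPM in chow and 43.4 to 81.2 CPM in MASH, with 4 of 8 higher in every MASH library, and with Pkhd1, Krt19, Epcam and Cftr at 0 in chow. In hepatocyte-like nuclei it was 26.7 to 67.3 CPM in chow and 97.1 to 112 CPM in MASH, with 6 of 8 higher. In stellate-like nuclei it was 125 to 196 and 247 to 478 CPM (5 of 8). There Pkhd1, Krt19, Krt7, Epcam and Cftr were at 0 in chow, so the chow sum came from Bicc1, Glis3 and Sox9. In endothelial-like nuclei it was 13.3 to 37.8 and 45.4 to 75.7 CPM (3 of 8). It was 0 to 26.5 and 86.6 to 151 CPM in T-like (4 of 8) and 0 to 50.5 and 81.9 to 149 CPM in B-like nuclei (3 of 8). The part of these markers in the Spp1 differences was not tested. In hepatocyte-like nuclei without a UMI of 6 bile duct and 4 macrophage genes, an alternative chosen after the data were seen, the log2 fold of Spp1 was 4.05 (edgeR adjusted p 0.0174).

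Cholangiocyte-like nuclei themselves showed no detected difference in Spp1 between the diets. Only 1 chow library reached the minimum of 20 nuclei, so the class was tested with a minimum of 5 nuclei, a choice made after the data were seen. Of 792 genes tested 1.14% were called, and Spp1 was not, with a log2 fold of -0.05 (SE 0.73, edgeR adjusted p 0.987). With an SE of this size moderate differences were not detectable. Without chow replicate 3 the log2 fold was 1.01, still not called. All cholangiocyte-like nuclei of MASH and of chow replicate 1 lay in 1 cluster, and those of chow replicate 2 and 95.3% of those of chow replicate 3 in another.

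Whether the Spp1 difference between the diets was larger in 1 class than in another was tested by the interaction of class and diet, with the library as a block. Against hepatocyte-like nuclei, the log2 difference of folds was 0.82 (SE 0.66, edgeR adjusted p 0.551) in macrophage-like, 0.63 (SE 0.52, adjusted p 0.641) in stellate-like and -0.18 (SE 0.46, edgeR adjusted p 0.948) in endothelial-like nuclei. Spp1 was not called in any of these 3 contrasts, in which 5.37%, 6.04% and 3.94% of genes were called.

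Cd44 was carried mainly by immune classes. In macrophage-like nuclei it was 307, 207 and 577 CPM in chow and 245 and 254 CPM in MASH, in T-like nuclei 122, 52.9 and 257 CPM and 111 and 157 CPM, and in B-like nuclei of at least 20 nuclei 28.6 and 185 CPM in chow and 104 and 171 CPM in MASH. The MASH libraries lay within the chow range in all 3 classes, and in macrophage-like nuclei the log2 fold was -0.52 (SE 0.42, edgeR adjusted p 0.724). In cholangiocyte-like nuclei Cd44 had 0, 1 and 1 UMIs in chow and 129 CPM in each MASH library, from 60 and 236 UMIs, and it did not pass the filter on low counts.

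In hepatocyte-like nuclei Cd44 was 0.865, 1.44 and 1.69 CPM in chow and 11.1 and 13.3 CPM in MASH. All chow libraries were below both MASH libraries, and Cd44 rose by a log2 fold of 2.81 (SE 0.45, edgeR adjusted p 0.0131). The MASH level was still below that of endothelial-like nuclei, 23.7 and 44 CPM, and of stellate-like nuclei, 62.7 and 57.7 CPM. Macrophage markers moved with it: the sum of 10 such markers in hepatocyte-like nuclei was 14.9 to 22.2 CPM in chow and 39.0 to 62.5 CPM in MASH, with 6 of 10 higher in every MASH library, and their part in the Cd44 difference was not tested. The call was lost without MASH replicate 1 or 2 (edgeR adjusted p 0.0911 and 0.110). Over all nuclei Cd44 rose by 2.11 (SE 0.46, edgeR adjusted p 0.0270), from 6.38, 4.01 and 10.2 CPM to 40.1 and 39.4 CPM. That call was lost without chow replicate 2 or either MASH library (edgeR adjusted p 0.0553 to 0.0938), while macrophage-like nuclei, the class highest in Cd44, went from 1.80%, 1.15% and 2.17% of named nuclei in chow to 18.2% and 11% in MASH.

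Itgav, the alpha v chain shared by the RGD-binding receptors, was highest by mean in macrophage-like nuclei on both diets, followed in MASH by cholangiocyte-like nuclei. Macrophage-like nuclei had 280, 104 and 145 CPM in chow and 227 and 347 CPM in MASH, and cholangiocyte-like nuclei had 2, 0 and 5 UMIs in chow and 196 and 240 CPM in MASH. The diets overlapped in macrophage-like nuclei before scaling of the libraries, and the log2 fold was 0.76 (SE 0.38, edgeR adjusted p 0.467). Over all nuclei Itgav was 31.3, 33.0 and 24.0 CPM in chow and 63.1 and 83.1 CPM in MASH. It rose by 0.94 (SE 0.22, edgeR adjusted p 0.0312), a call lost in 4 of the 5 fits that leave out 1 library, all except the fit without chow replicate 1. In hepatocyte-like nuclei, where the log2 fold was 0.40, it was not called (edgeR adjusted p 0.278).

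The 3 beta chains differed in the classes that carried them. Itgb1, the partner of many alpha chains, was at 174, 212 and 429 CPM in T-like nuclei of chow and 311 and 346 CPM in those of MASH, and in stellate-like nuclei at 224, 227 and 310 CPM and 213 and 142 CPM. It was called in no class and not over all nuclei, with log2 folds between -0.57 and 0.52. Itgb3, the beta chain of the vitronectin receptor, stood in stellate-like nuclei at 87.6, 116 and 89.6 CPM in chow and at 60.3 and 29.6 CPM in MASH. The groups did not overlap, but the log2 fold of -1.14 was not called (SE 0.43, edgeR adjusted p 0.261). T-like nuclei also carried Itgb3, with means of 91.3 CPM in chow and 57.3 CPM in MASH from 14 and 27 UMIs. That MASH mean was above the stellate-like one of 44.9 CPM. Endothelial-like nuclei had means of 55.0 and 35.9 CPM. Cholangiocyte-like nuclei had no Itgb3 UMI in 4 libraries and 3 in MASH replicate 2.

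Itgb5 was highest in macrophage-like nuclei, with 153, 96.2 and 100.2 CPM in chow and 140 and 135 CPM in MASH, and overlapped between the diets there. Over all nuclei it was 16.5, 15.1 and 7 CPM in chow and 40.5 and 31.8 CPM in MASH, and rose by 1.20 (SE 0.33, edgeR adjusted p 0.0455). That call was lost when any 1 of the 5 libraries was left out (edgeR adjusted p 0.0546 to 0.316). In hepatocyte-like nuclei the values were 14.6, 13.5 and 5.31 CPM in chow and 27.7 and 19.1 CPM in MASH, and Itgb5 was not called (log2 fold 0.82, edgeR adjusted p 0.174).

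The alpha chains of the thrombin-exposed motif lay in different classes. Itga4, the alpha chain of the VCAM1 receptor of leukocytes, was 227, 170 and 138 CPM in chow and 264 and 257 CPM in MASH in macrophage-like nuclei, and 470, 52.9 and 193 CPM and 469 and 746 CPM in T-like nuclei. It was called in no class and not over all nuclei. In stellate-like nuclei the chow libraries had 1, 0 and 2 UMIs and the MASH libraries 24 and 33, which is 7.33 times per UMI with a counting interval of 2.39 to 36.6, and in endothelial-like nuclei they had 1, 0 and 1 and 13 and 11, or 13.5 times (3.34 to 118). It did not pass the filter on low counts in either class. Macrophage markers were also higher in sum there, between 62.2 and 75.4 CPM in chow and 187 and 251 CPM in MASH in stellate-like nuclei, with 6 of 10 higher in every MASH library and Marco at 0 in MASH. In endothelial-like nuclei the sums were 35.5 to 75.6 CPM and 106 to 266 CPM (4 of 10, Timd4 and Marco at 0 in MASH), and the part of these markers was not tested.

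Itga9 was carried by endothelial-like nuclei, at 156, 164 and 313 CPM in chow and 130 and 164 CPM in MASH, by macrophage-like nuclei, at 220, 215 and 256 CPM and 121 and 135 CPM, and by stellate-like nuclei, at 143, 133 and 142 CPM and 147 and 99.2 CPM. In macrophage-like nuclei both MASH libraries were below all chow libraries, but the log2 fold of -0.83 was not called (SE 0.33, edgeR adjusted p 0.331). Over all nuclei Itga9 rose by 1.05 (SE 0.29, edgeR adjusted p 0.0460), from 11.5, 7.50 and 9.67 CPM to 26.1 and 24.5 CPM, and the call was lost in 4 of the 5 fits without 1 library, all except that without chow replicate 3. In hepatocyte-like nuclei it was 1.02, 1.5 and 1.08 CPM in chow and 3.52 and 3.57 CPM in MASH, with a log2 fold of 1.22 that was not called (SE 0.41, edgeR adjusted p 0.0857). In a sum over all nuclei the make-up of the library and the level per nucleus cannot be told apart.

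**Figure D4:**
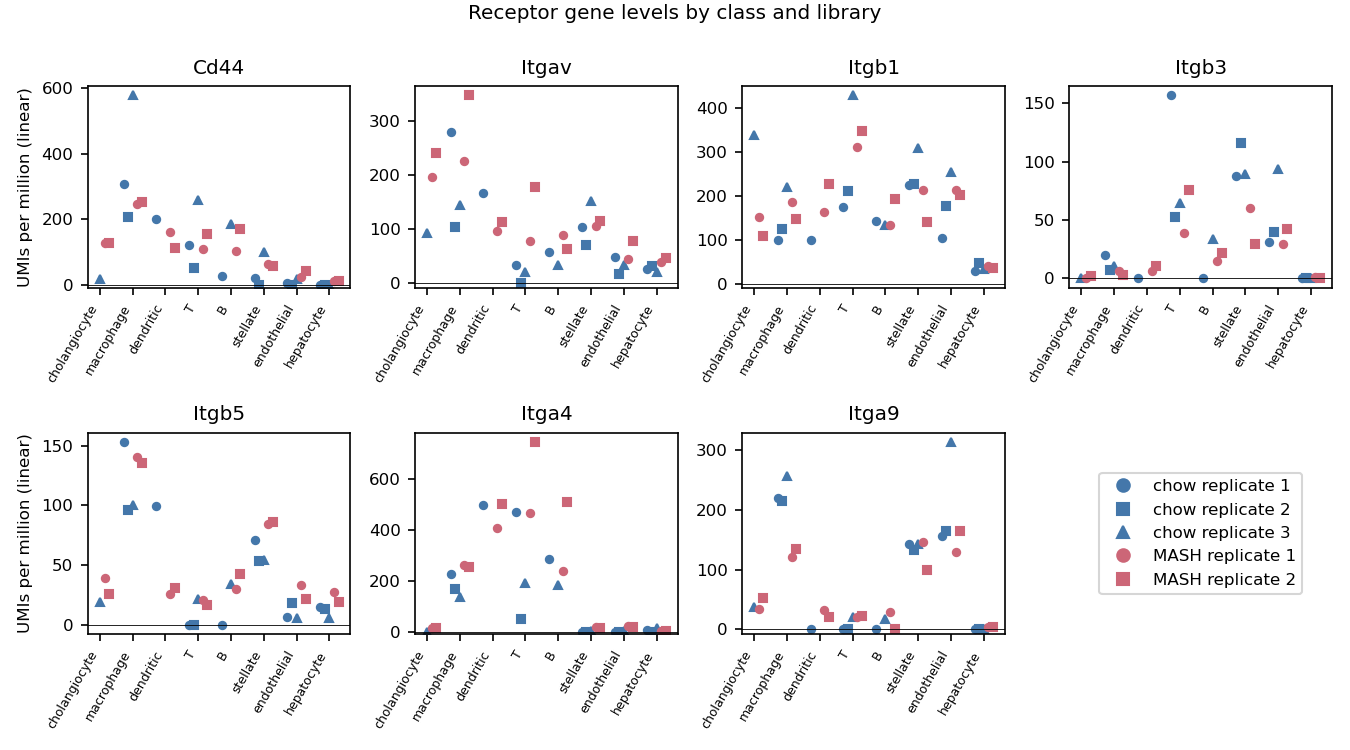
Levels of the 7 receptor genes in CPM (linear axis, 1 panel per gene) by class, for libraries with at least 20 nuclei of the class; blue symbols are chow and red symbols MASH. Cd44 and Itgb5 were highest in macrophage-like nuclei, Itga4 in T-like, B-like, dendritic-like and macrophage-like nuclei, and Itga9 in endothelial-like, macrophage-like and stellate-like nuclei.

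**Figure D5:**
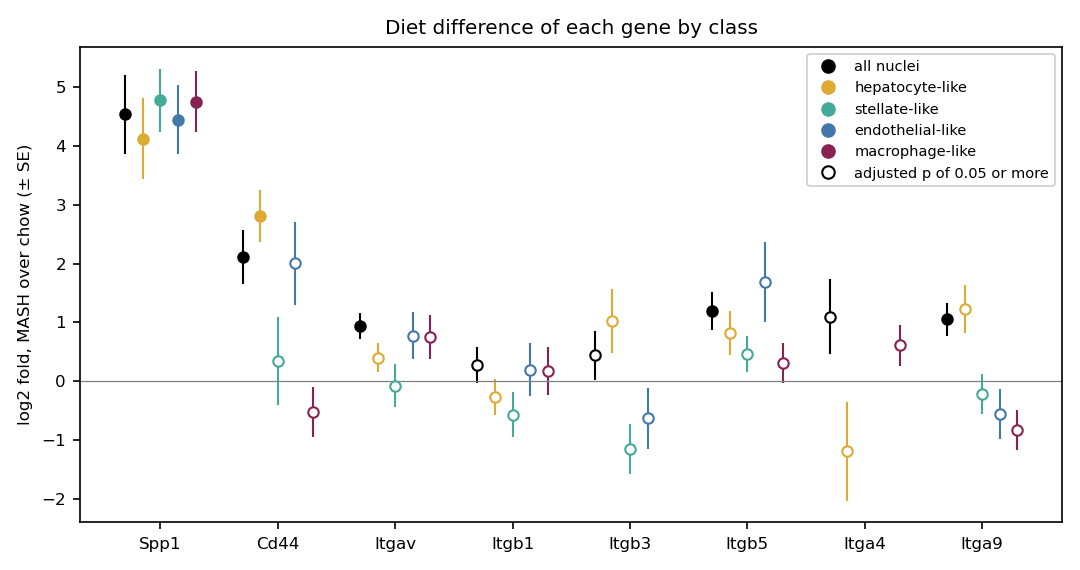
Log2 fold of MASH over chow for the 8 genes, with the standard error, over all nuclei and in 4 classes (3 chow and 2 MASH libraries); filled points were called at an adjusted p under 0.05. Spp1 was filled in all 5 sets, between 4.12 and 4.78, Cd44 over all nuclei and in hepatocyte-like nuclei, and Itgav, Itgb5 and Itga9 over all nuclei.

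The interaction test called several receptor genes. Of all genes tested, 5.37%, 6.04% and 3.94% were called in the macrophage-like, stellate-like and endothelial-like contrasts. The diet difference of Cd44, called in hepatocyte-like nuclei at 2.81 and not called in macrophage-like (-0.52) or stellate-like nuclei (0.35), differed from the hepatocyte-like one by -3.07 in macrophage-like (SE 0.40, edgeR adjusted p 4.79e-07) and -2.25 in stellate-like nuclei (SE 0.43, adjusted p 1.62e-05). That of Itga9 differed in macrophage-like, stellate-like and endothelial-like nuclei by -1.83, -1.48 and -1.86 (edgeR adjusted p 0.00110, 0.00349 and 0.000461). Its own folds there were -0.83, -0.22 and -0.56, against 1.22 in hepatocyte-like nuclei, and none of these 4 was called. That of Itgb3 differed in stellate-like nuclei by -2.16 (SE 0.51, edgeR adjusted p 0.00103), with folds of -1.14 there and 1.02 in hepatocyte-like nuclei, neither of them called. That of Itga4 differed in macrophage-like nuclei by 1.73 (edgeR adjusted p 0.0327), with folds of 0.61 there and -1.18 in hepatocyte-like nuclei, neither of them called (edgeR adjusted p 0.557 and 0.359), and in stellate-like and endothelial-like nuclei the fit gave 4.33 and 4.97 from the few chow UMIs above. In the macrophage-like contrast the choice of scaling moved the median of all genes from 0.35 to 0.02 and the calls from 291 higher and 514 lower to 122 higher and 697 lower, and relative to the first of these medians the difference of Itga4 shrinks. Single libraries decided several of these calls. Itga4 in macrophage-like nuclei was not called without chow replicate 1, chow replicate 3 or MASH replicate 1 (edgeR adjusted p 0.0680, 0.630 and 0.582), nor Itga9 there without MASH replicate 2 (0.0915). In stellate-like nuclei Cd44 was not called without chow replicate 3 (-1.0) or MASH replicate 2 (-1.89), Itga9 without MASH replicate 2 (-1.14) and Itgb3 without MASH replicate 1 or 2 (-2.28 and -2.08). In endothelial-like nuclei Itga9 was not called without MASH replicate 1 or 2 (-1.72 and -1.84). With that other scaling Itga4 was not called (1.41, edgeR adjusted p 0.110), while Cd44 and Itga9 were, at -3.40 and -2.15.

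Also 4 other groups of genes around osteopontin were listed, again with earlier results known. Of 13 other ligands of these receptors, 8 were tested in hepatocyte-like nuclei, where Mfge8, a bridging protein that binds alpha v integrins, rose by 3.05 on the log2 scale (edgeR adjusted p 0.00764), from 0.827, 1.53 and 0.831 CPM in chow to 11.1 and 11 CPM in MASH. The adhesive plasma protein Vtn fell by 1.30 on the log2 scale (edgeR adjusted p 0.0369), from 459, 556 and 396 CPM to 259 and 215 CPM. Tnc, a matrix glycoprotein, was also called there, with 37 UMIs in MASH over 3 in chow, or 28.7 times per UMI with a counting interval from 9.09 to 145 (edgeR adjusted p 0.0338). In hepatocyte-like nuclei Tnc passed the filter on low counts only through the MASH libraries. Its call is not to be weighed against the share of all genes called there. Over all nuclei Mfge8 alone was called, of 9 tested. None was called in stellate-like (7 tested), endothelial-like (6), macrophage-like (3), T-like (2) or B-like (2) nuclei.

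Of 20 other integrin chains, 19 were tested over all nuclei and 9 rose while 2 fell, where 16% of all genes tested were called and 10.6% rose. The median log2 fold was 1.89, against -0.03 over all genes. By size of fold the first 4 were Itgb6, an epithelial beta chain with 141 UMIs in MASH over 1 in chow (252 times per UMI, counting interval 44.6 to 10040), Itgax, the CD11c chain of myeloid cells (4.73, SE 0.42), Itga11, a collagen receptor chain of fibroblasts (3.41), and Itgb8, a beta chain that pairs with alpha v (3.20, SE 0.68), with edgeR adjusted p of 0.0138, 0.00437, 0.0451 and 0.0253. Over all nuclei Itgb6 and Itga11 passed the filter on low counts only through the MASH libraries. Their calls are not to be weighed against the shares of all genes. In hepatocyte-like nuclei, where 13.8% of all genes were called, 16 were tested, 6 rose and 1 fell. Itgax, Itgb8, Itgb2 and Itga8 were ahead at 4.36, 4.35, 2.83 and 2.41. These 4 genes were low in hepatocyte-like nuclei of MASH, between 0.782 and 3.81 CPM. They passed the filter on low counts there only through the MASH libraries, so their calls are not to be weighed against that share. In the same nuclei the summed level of 10 macrophage markers was 14.9 to 22.2 CPM in chow and 39.0 to 62.5 CPM in MASH, with 6 of 10 higher in every MASH library, and that of the 8 cholangiocyte markers moved as given above. Their part in these differences was not tested. In macrophage-like nuclei, where 1.07% of genes were called, 1 of 8 was called, Itgax. It had 413 UMIs in MASH over 3 in chow, or 24.0 times per UMI with a counting interval from 8.16 to 117 (edgeR adjusted p 0.00652). Itgax passed the filter on low counts there only through the MASH libraries. Its call is not to be weighed against that share. None was called in stellate-like (4 tested), endothelial-like (5) or T-like (4) nuclei.

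Of 8 genes whose products modify osteopontin, 7 were tested over all nuclei and 3 were called, against 16% of all genes. There Mmp7, a matrix metalloproteinase of epithelium, was higher, with 0, 0 and 5 UMIs in chow and 26 and 277 in MASH (6.19, edgeR adjusted p 0.0278). It passed the filter on low counts only through the MASH libraries, so its call is not to be weighed against that share. Ctsd, the lysosomal protease cathepsin D, rose by 0.99 (edgeR adjusted p 0.0377), and F2, the precursor of thrombin, fell by 1.30 on the log2 scale (adjusted p 0.0444). In hepatocyte-like nuclei, with 2 of 5 called against 13.8% of all genes, Fam20c, the kinase that phosphorylates secreted proteins including osteopontin, rose by 1.28 (edgeR adjusted p 0.0436) and F2 fell by 1.18 on the log2 scale (adjusted p 0.0476). In macrophage-like nuclei, where 1.07% of all genes were called, 1 of 5 was called, Fam20c. It had 238 UMIs in MASH over 2 in chow, or 20.7 times per UMI with a counting interval from 5.68 to 172 (edgeR adjusted p 0.0198). Fam20c passed the filter on low counts there only through the MASH libraries. Its call is not to be weighed against that share. None was called in stellate-like (4 tested), endothelial-like (4), T-like (2) or B-like (1) nuclei.

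Of 14 genes of integrin and CD44 signalling, all tested over all nuclei, 3 rose, against 10.6% of all genes: Fermt1, the epithelial kindlin (3.33, edgeR adjusted p 0.0229), the kinase Src (3.01, adjusted p 0.0168) and the adaptor Lims1 (1.01, adjusted p 0.0353). In hepatocyte-like nuclei Src rose by 4.53 (edgeR adjusted p 0.00740) and Msn, which encodes moesin, a linker of CD44 to actin, by 1.85 (adjusted p 0.0211), so that 2 of 14 were called where 13.8% of all genes were. Fermt1 over all nuclei and Src in hepatocyte-like nuclei passed the filter on low counts only through the MASH libraries. Their calls are not to be weighed against these shares. None was called in stellate-like (11 tested), endothelial-like (9), macrophage-like (12) or T-like (1) nuclei.

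Over 40 sums of library and class with at least 20 nuclei, genes most like Spp1 on the log2(CPM + 5) scale, of 15822 compared, were Tspan8 (Pearson r 0.81), Anxa5 (0.78), Slc5a1 (0.78) and Scara3 (0.77). Among the receptor genes r with Spp1 was 0.57 for Itgav, 0.29 for Cd44, 0.28 for Itgb5 and between -0.22 and 0.15 for the other 4. The sums share libraries and differ in depth, so these values are a description.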

How the data were processed

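The nuclei had been sorted from snap-frozen livers, and 10x 3′ libraries were made from them. The authors deposited raw UMI counts per gene and nucleus for each of 5 libraries, made with Cell Ranger 8.0.1 on GRCm38 per the submitters' processing notes, with no normalization. Total counts were 35612373 to 49137377 UMIs per library, which limits the precision of classes with few nuclei. UMI counts were not scaled by transcript length, so levels are not compared between genes.

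Nuclei with at least 300 genes were kept, and the nuclei with the highest Scrublet scores (scanpy 1.11.5) were removed as doublets, at 0.8% per 1000 nuclei. Libraries were integrated and clustered with Seurat 5.3.0 (3000 variable genes without the genes described here and their lists, 15 components, resolution 0.2), and nuclei outside hepatocyte clusters were clustered again (30 components, resolution 0.5). Hepatocyte-like clusters were those of the first round where no other class had 3 markers and the median mitochondrial share was under 10%. No hepatocyte marker was required for them. A second-round cluster was named where its markers had a mean log2 fold of at least 2. It also needed at least 3 of them with a log2 fold of 1 or more, 1 or more among its top 10 genes, and a median doublet score under 0.1. Other second-round clusters stayed unnamed.

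Counts were summed per library and class. MASH and chow were compared with edgeR 4.0.16 in R 4.3.3 (quasi-likelihood test, TMM scaling, its filter on low counts, Benjamini-Hochberg adjustment over all genes tested), in classes with at least 20 nuclei in at least 2 libraries of each diet. Shares of nuclei were compared with exact permutation tests (scipy 1.17.1). Alternatives included DESeq2 1.42.0. The test was checked on simulated counts.

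The genes and lists were chosen with earlier results of these data known. All 8 genes are given, and from each list the genes called, at most 4 per class by size of fold where more than 5 were called, and the 5 genes most correlated with Spp1, of which 1 is not reported here. Promoters and positions are from RefSeq (GRCm38.p6) and a GRCm38 annotation, and 7 of the 8 genes had a promoter entry.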

Additional observations from a re-analysis of the deposited data

Results flagged for a closer look

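In 9 tests the diet difference of a receptor gene differed between 2 classes of nuclei, by the interaction of class and diet in edgeR. Every receptor gene was tested in the macrophage-like, stellate-like and endothelial-like contrasts. Of all genes tested in these contrasts 5.37%, 6.04% and 3.94% were called. Against hepatocyte-like nuclei the log2 differences were -3.07 for Cd44, -1.83 for Itga9 and 1.73 for Itga4 in macrophage-like nuclei, -2.25 for Cd44, -1.48 for Itga9, -2.16 for Itgb3 and 4.33 for Itga4 in stellate-like nuclei, and -1.86 for Itga9 and 4.97 for Itga4 in endothelial-like nuclei. The Itga4 values in stellate-like and endothelial-like nuclei depend on the prior count, since the chow libraries held 3 and 2 Itga4 UMIs there. Itga4 did not pass the filter on low counts in those classes by themselves. It entered these 2 tests because the filter was applied to each class together with hepatocyte-like nuclei. Holding under alternatives therefore lends those 2 calls no support. Those 2 calls and that of Cd44 in macrophage-like nuclei held in each of the 7 alternatives run for them, and each of the other 6 was lost in at least 1 alternative.

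Spp1 was also seen in nuclei that no comparison between classes used. In unnamed nuclei it was 368 and 932 CPM in MASH replicates 1 and 2, above the 11.2, 16.2 and 21.4 CPM of the chow libraries. An unnamed cluster led by mitochondrial genes held 2318 nuclei of MASH replicate 1, with a median of 49.3% mitochondrial UMIs and Spp1 at 500.1 CPM, and 314 nuclei of MASH replicate 2, with 2.94% and 2320 CPM.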

How the results depend on the processing

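Spp1 kept its call over all nuclei, in macrophage-like and in stellate-like nuclei under every alternative run. The log2 folds were 4.12 to 5.43, 4.18 to 5.60 and 4.16 to 5.34. In macrophage-like and stellate-like nuclei, as in T-like and B-like nuclei, Spp1 passed the filter on low counts only through the MASH libraries. That its calls held there therefore lends them no support. In hepatocyte-like nuclei its log2 fold was 3.65 to 4.78 when 1 library was left out, and in B-like nuclei 8.36 to 8.74, with the call lost without chow replicate 1 (edgeR adjusted p 0.0875). In endothelial-like nuclei its call was lost with the replicate number as a block (5.29, edgeR adjusted p 0.0638) and with doublet calls kept (5.47), and in T-like nuclei when nuclei were taken by single genes (4.98, edgeR adjusted p 0.0623). In cholangiocyte-like nuclei Spp1 had a log2 fold of -0.40 to 1.015 when 1 library was left out. Taken by single genes, nuclei with Pkhd1 gave 1.17, but 800 of them were hepatocyte-like against 965 cholangiocyte-like. In chow 113, 69 and 48 nuclei were taken in this way, against 18, 9 and 43 in the cholangiocyte-like class. The Spp1 interaction was -0.63 to 2.17 in macrophage-like and -0.56 to 0.72 in endothelial-like nuclei when 1 library was left out. The causes were not tested.

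The number of genes called moved with the library left out, to 325 to 3473 over all nuclei, 141 to 2851 in hepatocyte-like, 27 to 73 in stellate-like, 12 to 45 in endothelial-like, 31 to 129 in macrophage-like, 9 to 53 in T-like, 6 to 11 in B-like and 8 to 48 in cholangiocyte-like nuclei, and to 287 to 843, 248 to 1034 and 162 to 610 in the macrophage-like, stellate-like and endothelial-like interactions. Storey q-values called 5239 genes over all nuclei and 4188 in hepatocyte-like nuclei, against 2619 and 2057 by edgeR. DESeq2 called 4407 over all nuclei, 3453 in hepatocyte-like, 150 in stellate-like, 122 in macrophage-like and 30 in T-like nuclei. With no filter on low counts the calls were 583 in stellate-like, 272 in endothelial-like, 329 in macrophage-like, 36 in T-like and 22 in B-like nuclei, and a stricter filter left 8 in T-like nuclei. With nuclei taken by single genes they were 160 in endothelial-like, 159 in macrophage-like and 2 in T-like nuclei. In nuclei taken by Pkhd1, many of them hepatocyte-like as given above, they were 332. With doublet calls kept edgeR called 0 genes in endothelial-like nuclei, with 642 at an unadjusted p under 0.05, where DESeq2 called 73 with doublets removed.

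Replicate numbers only name libraries, and the deviations of same-numbered libraries correlated at -0.11 and -0.23. With the replicate block edgeR called 132 genes in stellate-like and 0 in endothelial-like nuclei, the latter with 288 at an unadjusted p under 0.05. Under the block the log2 fold turned to 0.16 for Itga4 in hepatocyte-like, 0.34 for Itgav in stellate-like, 0.018 for Itgb3 in endothelial-like and 0.0068 for Cd44 in macrophage-like nuclei, none of them called. B-like nuclei could not be fitted with the block.

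Receptor folds that were not called also turned sign when 1 library was left out, with ranges in stellate-like nuclei of -0.24 to 0.32 for Itgav, -0.12 to 2.25 for Cd44 and -0.65 to 0.14 for Itga9, in endothelial-like nuclei of -0.15 to 0.56 for Itgb1 and -1.05 to 0.094 for Itgb3, and in macrophage-like nuclei of -0.75 to 0.051 for Cd44 and -0.16 to 0.65 for Itgb1. The interactions of Itgav and Itgb5 in stellate-like nuclei ranged from -0.58 to 0.00056 and from -0.61 to 0.038, and that of Itgav in endothelial-like nuclei from -0.0053 to 0.52. Itgav in stellate-like nuclei was 0.0084 with doublet calls kept, and Itgb1 in macrophage-like nuclei was -0.14 with nuclei taken by single genes.

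With nuclei taken by single genes, Spp1 was 746 CPM in chow and 2108 CPM in MASH in nuclei with Pkhd1, and 18.8 CPM in T-like nuclei of chow, and hepatocyte-like nuclei held 8.55% of Spp1 UMIs in MASH. With doublet calls kept, Spp1 in MASH was 6261 CPM in cholangiocyte-like and 695 CPM in endothelial-like nuclei, and the endothelial-like ratio over B-like nuclei 0.855. Set against endothelial-like in place of B-like nuclei, Spp1 per reference UMI was 16.7 times in cholangiocyte-like, 0.550 in hepatocyte-like, 1.12 in macrophage-like, 1.02 in stellate-like, 1.16 in T-like and 0.967 in dendritic-like nuclei, and with Alb alone as reference the T-like ratio over B-like nuclei was 0.670.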
